A study of Homo sapiens with 11 samples.

Results

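MacroH2A1.1 (mH2A1.1) peaks of middle width that lie away from promoters and also carry total mH2A1 are described here in MDA-MB-231, an established human cell line of triple-negative breast cancer. Of 30687 mH2A1.1 peaks, 4236 were chosen by 3 properties of the deposited peak lists. The width, rounded to the nearest 3 kb, was 6 to 21 kb. At least 1 bp lay under one of the 24222 total mH2A1 peaks. No base lay within 1 kb of the annotated start (TSS) of a protein-coding gene. These values chose the members and are given as description only.

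Both peak lists come from cells without knockdown. There was 1 ChIP-seq library for mH2A1.1, made with a custom polyclonal antibody, and 1 for total mH2A1, whose antibody sees both splice forms. The paper reports that the latter antibody binds tagged mH2A1.1 less well than the custom one. Peaks named mH2A1.1-only below met no peak called in the total mH2A1 library, which does not show that mH2A1 is absent there. RNA-seq was from WT cells (2 libraries, transfection reagent without siRNA) and from mH2A1.1 KD cells (2 libraries, 11 nM siRNA against mH2A1.1), all collected on day 3 after transfection. The study's input and its promoter capture libraries were not analysed here. With 1 library per antibody the peaks have no replicate check, so differences between groups of peaks are given with exact 95% binomial intervals, which cover counting error only, and without a test.

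MacroH2A is a histone H2A variant with a large globular macro domain that stands out from the nucleosome. The gene MACROH2A1 gives the splice forms mH2A1.1 and mH2A1.2, and the macro domain of mH2A1.1 alone binds ADP-ribose. MacroH2A is best known from the inactive X chromosome and from broad domains of silent chromatin, but it also lies on and near transcribed genes. A member of this set therefore marks a stretch where both antibodies gave a signal away from the single annotated start of each protein-coding gene, though other transcripts can start there.

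Sequence was not used to choose the members, and 3 windows of 300 bases show its range. All are from the plus strand of GRCh38. The first is the most CpG-rich window of the member with the most CpG per base, chrX:40095001-40110000, at chrX:40109478-40109777 within the span of BCOR, a corepressor of transcription, outside all annotated exons. The second is the window with the most matches to TGANTCA, the letters bound by AP-1 (Fos and Jun factors), in the member that has the most per base, chr16:89994001-90000000, at chr16:89995807-89996106 in the pseudogene AFG3L1P, in intron 12 of one of its transcripts and across an exon of another. The last is the most CpG-rich window in the first member, by coordinate, of PTPRN2 (chr7:157547665-157547964, intron 22). Capitals mark CG in the BCOR and PTPRN2 windows and TGANTCA in the AFG3L1P window.
BCOR window: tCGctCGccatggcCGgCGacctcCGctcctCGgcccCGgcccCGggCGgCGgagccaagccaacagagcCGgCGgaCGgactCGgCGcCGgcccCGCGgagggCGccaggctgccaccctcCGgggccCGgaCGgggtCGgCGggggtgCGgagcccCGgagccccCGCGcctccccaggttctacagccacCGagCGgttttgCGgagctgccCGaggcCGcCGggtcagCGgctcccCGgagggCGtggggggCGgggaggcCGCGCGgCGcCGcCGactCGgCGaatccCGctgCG
AFG3L1P window: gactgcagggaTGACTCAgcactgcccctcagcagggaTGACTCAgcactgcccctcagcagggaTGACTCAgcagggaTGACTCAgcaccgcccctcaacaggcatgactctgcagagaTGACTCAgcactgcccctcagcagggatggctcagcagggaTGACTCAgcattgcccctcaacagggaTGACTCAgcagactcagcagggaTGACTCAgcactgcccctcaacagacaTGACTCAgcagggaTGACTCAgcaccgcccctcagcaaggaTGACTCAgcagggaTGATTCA
PTPRN2 window: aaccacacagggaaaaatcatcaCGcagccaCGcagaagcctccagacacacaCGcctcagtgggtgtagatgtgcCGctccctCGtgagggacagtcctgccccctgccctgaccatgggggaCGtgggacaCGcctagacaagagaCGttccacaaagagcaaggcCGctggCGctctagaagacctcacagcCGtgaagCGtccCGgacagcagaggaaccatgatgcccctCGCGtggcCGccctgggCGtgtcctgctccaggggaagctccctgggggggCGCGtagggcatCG

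The BCOR window held 48 CG pairs and was 81.3% GC, and its member held 77.1 CG per kb. The AFG3L1P window held 12 matches to TGANTCA, and 19 of the gaps between neighbouring matches in that member, which held 45, were 27 bp. The PTPRN2 window held 20 CG pairs. The BCOR member is an extreme, since over all members the density was 15.1 CG per kb.

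The members were GC-rich against their own surroundings. Their median GC content was 47.5%, with the 10th and 90th percentiles at 43.1% and 54.2%, while the median of the 6 kb flanks on either side, which hold no mH2A1.1 peak, was 45.4%. GC was above that of the flanks in 3159 of 4236 members (74.6%, interval 73.2 to 75.9%), by a median of 1.94 percentage points, and the primary chromosomes as a whole were 40.9% GC. Common peaks of the same widths at a protein-coding TSS were higher, at a median of 50.8%, and peaks of 24 kb or more were at 50.5%. Peaks of the same widths away from promoters but without a called mH2A1 peak (mH2A1.1-only) were lower, at 46.1%. CpG density followed the same order for members (15.1 per kb), promoter peaks (23.7 per kb) and the mH2A1.1-only peaks (14.5 per kb). How the GC content of a stretch affects ChIP recovery or peak calling was not tested.

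Short motifs other than AGATAA differed little between members and flanks. TGANTCA, which is its own reverse complement, occurred 0.335 times per kb in members, 0.315 in flanks and 0.330 over the primary chromosomes. Since GC-rich sequence has fewer chance matches, members were also set beside all 6 kb stretches of like GC. At 45 to 50% GC, where 1896 members lie, the density was 0.343 per kb in members and 0.316 in the stretches. At 50 to 55% GC it was 0.304 against 0.275. Of the 987 members 6 kb wide, 85.3% (interval 82.9 to 87.5%) held a match, beside 83.2% of all 6 kb stretches without gaps. AGATAA, read on both strands as the core bound by GATA factors, was less dense in members (0.519 per kb) than in flanks (0.603) or the genome (0.824). It was not set beside stretches of like GC. Peaks at a protein-coding TSS (0.441, flanks 0.518) and mH2A1.1-only peaks (0.568, flanks 0.632) were also below their flanks. GGAATG, read on both strands as the core bound by TEAD factors, was at 0.618 per kb in members and 0.609 in flanks. The E-box CANNTG was at 6.09 per kb in members and 5.83 in flanks. A match is a run of letters and not a bound site.

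Total mH2A1 covered only part of most members. All starts and widths in both lists fall on a 3 kb grid, so every overlap is at least 3000 bp. Of all member bases, 59.4% lay under an mH2A1 peak and the median member was covered over 50% of its length. Coverage was complete in 1427 members (33.7%) and was exactly 3000 bp in 1731 (40.9%). In 38.4% of members the mH2A1 peak lay inside the mH2A1.1 peak, in 29.2% the mH2A1.1 peak lay inside the mH2A1 peak, in 25.4% the 2 were staggered and in 4.53% they had the same edges. The covered share of bases was 75.9% in members 6 kb wide and 54.3% in those 21 kb wide, an order that the 3000 bp step itself favours.

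mH2A1 peaks also lay outside members, much as around common peaks at a protein-coding TSS. Inside members, mH2A1 covered 62.7% of the 3 kb bins at the edges and 56.1% of the inner bins. Members 6 kb wide have edge bins alone and are at least 50% covered by the rule, and without them the edge bins were at 58.6%. In the bin just outside, mH2A1 still covered 37.3%, then 30.4% and 27.1% in the next bins, and 29.9% at 30 kb. Around common peaks at a protein-coding TSS the bin just outside was at 31.6% and that at 30 kb at 27.6%. Around mH2A1.1-only peaks away from promoters these bins were at 9.73% and 15.7%. At 30 kb mH2A1.1 peaks themselves covered 31.7% of bins around members and 22.2% around mH2A1.1-only peaks. The rule asks for a called mH2A1 peak inside members and for none inside mH2A1.1-only peaks. The inner and nearest values are thus partly set by the choice of groups.

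**Figure D1:**
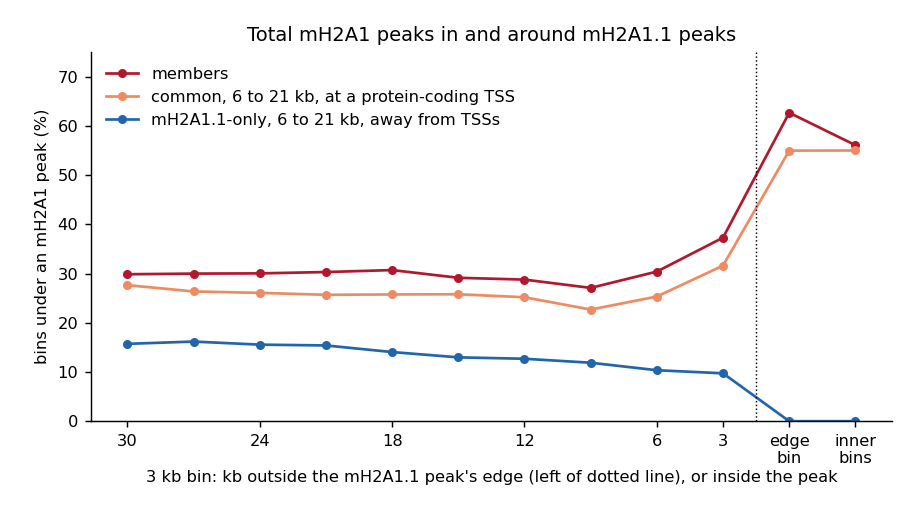
Share of 3 kb bins under a total mH2A1 peak (y axis, %) by distance from the edge of the mH2A1.1 peak (x axis, kb outside, then the edge bin and the inner bins), for members, common peaks at a protein-coding TSS and mH2A1.1-only peaks away from promoters. Members fall from 62.7% in the edge bin to 37.3% just outside and stay near 30% out to 30 kb. They lie above the mH2A1.1-only peaks at each distance. Common peaks at a protein-coding TSS are at 31.6% just outside and 27.6% at 30 kb.

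Members lay between genes more often than the mH2A1.1-only peaks did. Of the 4236, 1903 (44.9%, interval 43.4 to 46.4%) touched a protein-coding gene, 1031 (24.3%) touched another kind of gene only, and 1302 (30.7%, interval 29.3 to 32.2%) lay between genes. Of the 2791 mH2A1.1-only peaks of the same width range away from promoters, 59.8% (58.0 to 61.6%) touched a protein-coding gene and 22.9% (21.3 to 24.5%) lay between genes. The latter were narrower (median 9000 bp), but the order was the same at each width, with 36.6% and 25.4% between genes at 6 kb and 26.4% and 10% at 21 kb. The distance to the nearest protein-coding TSS was much alike in both, with medians of 40404 bp for members and 40778 bp for the mH2A1.1-only peaks. Over 100 kb from such a TSS were 990 members (23.4%). Most members (68.7%) held no base of a protein-coding exon.

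**Figure D2:**
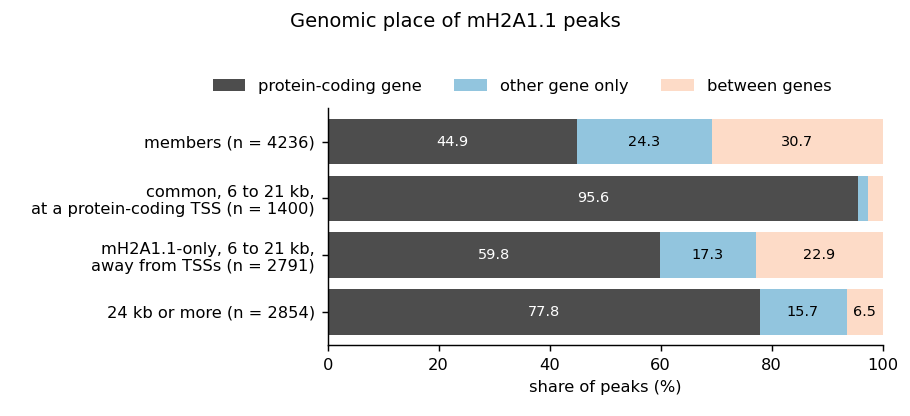
Share of peaks (x axis, %) that touch a protein-coding gene, touch another kind of gene only or lie between genes, for members and the 3 comparison groups (y axis, with the number of peaks). Members have 30.7% between genes and the mH2A1.1-only peaks 22.9%. Peaks at a protein-coding TSS are held near genes by their rule. Peaks of 24 kb or more are wider, so neither of these groups is a like comparison.

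Away from protein-coding gene starts did not mean away from every annotated start. Another annotated start lay in 1336 members (31.5%), beside 31.6% of the mH2A1.1-only peaks. In 479 members (11.3%, interval 10.4 to 12.3%) it was the start of a lncRNA gene, against 8.92% (7.89 to 10.0%) of the mH2A1.1-only peaks. Starts rise with width, and per Mb covered the counts of such peaks were alike, at 9.62 and 9.36. In 346 members (8.17%) it was the start of another protein-coding transcript of a protein-coding gene. At the edges of the rule, the member nearest to a protein-coding TSS was 1006 bp from it and 110 members lay less than 1 kb beyond the window, while the farthest peak counted as a promoter peak was at 972 bp. Among peaks that hold no protein-coding TSS window, an mH2A1 peak was met by 18.98% of those 3000 bp wide, just under the rule's limit, by 49.1% of those at 6 kb, by 86.2% of those at 21 kb and by 89.7% of those at 24 kb, just above it.

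The density of members differed between chromosomes. Per Mb of sequenced bases there were 2.81 members on chromosome 20, 2.76 on 22, 2.74 on 17 and 2.42 on 10, and 0.394 on X, 0.592 on 13 and 0.690 on 4. The share of members among all mH2A1.1 peaks of a chromosome varied less. It was 16.9% on 20, 15.9% on 22 and 17 and 16.7% on 10, and 8.24% on X, 10.7% on 13 and 9.86% on 4. The highest share was 17.5%, on 21. Another mH2A1.1 peak lay within 30 kb of 90.9% of members (interval 90.01 to 91.8%) and of 80.7% of the mH2A1.1-only peaks. The share was 91.7% for common peaks at a protein-coding TSS and 97.02% for peaks of 24 kb or more. In 37.9% of members the nearest other mH2A1.1 peak lay at the smallest gap in the list, 9000 bp. That was so for 26.01% of the mH2A1.1-only peaks, 39.6% of common peaks at a protein-coding TSS and 50.7% of peaks of 24 kb or more. Members were thus above the mH2A1.1-only peaks alone on both measures. Members that follow each other at 30 kb or less formed 479 runs of 2 and 3 runs of 7, and 2718 members stood alone.

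Runs of 7 differed in how far mH2A1 filled them, as a pair of them shows. The run at chr1:20250001-20454000 crosses VWA5B1 and the sequence beside it, 5 of its 7 members lay wholly under mH2A1, and mH2A1 peaks covered 73.5% of its span. The run at chr10:13929001-14130000 lies in FRMD4A, with 4 of 7 wholly under mH2A1 and 56.7% of the span covered. The 3 members farthest from a protein-coding TSS, at chr1:125178001-125184000, chr2:91758001-91773000 and chr2:91440001-91446000, are 3992462, 2814101 and 2748328 bp from one. All lie near centromeres.

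Members touched 1545 of 20033 protein-coding genes (7.71%), mostly long ones. The median length of these host genes was 81605 bp against 27471 bp for all protein-coding genes, and 17.8% of genes over 100 kb were hosts against 2.502% of those under 30 kb. One member was held by 1219 hosts, 326 held 2 or more and 21 held 5 or more. With genes cut into 5 equal stretches, 11.97% of member midpoints in a gene fell in the stretch at its start and 24.3% in that at its end, an order that the 1 kb window kept free at the start favours. The host's own start lay under a different, common mH2A1.1 peak in 34.3% of hosts over 100 kb and in 9.49% of genes of that length without a member. Under 30 kb the order was opposite, at 19.01% and 30.9%.

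The gene with the most members was FRMD4A, a FERM domain scaffold linked to cell polarity, with 14 members that covered 21.6% of its 818437 bp (chr10:13643706-14462142, minus strand). They were 6000 to 18000 bp wide, and mH2A1 covered 55.9% of their bases. KAZN, which encodes the cytoskeleton-linked protein kazrin, held 9. RUNX1, a runt-domain transcription factor, and PTPRN2, a receptor-type phosphatase of secretory vesicles, held 8 each. RBFOX3, a neuronal splicing factor, ADAM12, a membrane metalloprotease, GRIK4, a kainate receptor subunit, and GABBR2, a GABA-B receptor subunit, held 7 each. RPS6KA2, a ribosomal S6 kinase, and EYA2, a transcriptional coactivator with phosphatase activity, held 6 each. Among these 10 genes the share of member bases under mH2A1 ran from 36.4% in GRIK4 to 75% in GABBR2.

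**Figure D3:**
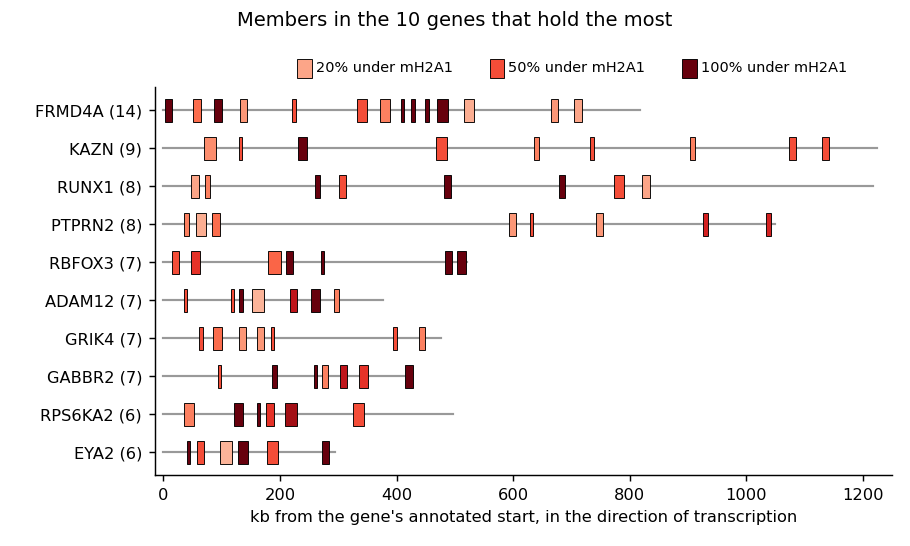
Members (boxes, drawn to scale) along the 10 genes that hold the most, by distance from the annotated start in the direction of transcription (x axis, kb), with the number of members after each symbol. Darker boxes are covered by mH2A1 over more of their length. The 14 members of FRMD4A include 6 wholly under mH2A1, and GRIK4 and PTPRN2 have none.

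These 10 genes ranged from silent to well expressed in WT cells, and levels between genes are compared as TPM, per exon length. RUNX1 was at 87.4 and 80.4 TPM in WT replicates 1 and 2, and FRMD4A at 40.4 and 39.9 TPM. GRIK4 was at 23.03 and 19.3 TPM, RPS6KA2 at 14.5 and 12.9 TPM and KAZN at 9.63 and 8.81 TPM. ADAM12 was lower, at 2.84 and 4.14 TPM. PTPRN2 had 1 and 0 reads in the WT libraries and GABBR2 had 2 in each, while RBFOX3 and EYA2 had none in any of the 4 libraries. Many members therefore lay in genes without detected RNA and many in active ones. Libraries with 7856892 to 9794674 counts in WT limit what 0 reads can show.

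The lists of gene families were read for hosts. Of 95 potassium channel genes, 21 (22.1%) held a member, of 30 integrins 7 (23.3%), of 44 collagens 9 (20.5%) and of 20 receptor tyrosine phosphatases 4, beside 7.71% of all protein-coding genes. The median length of these families' genes was 43514, 76016, 144750 and 189682 bp, above the 27471 bp of all, and no count was adjusted for it. Of all protein-coding genes of 30 to 100 kb 10.7% held a member, and of those over 100 kb 17.8%. Of 69 axon guidance ligands and receptors 12 held a member, of 44 ADAM and ADAMTS proteases 7, of 36 cadherins and protocadherins 5 and of 26 glutamate receptors 4. Of 107 SOX, FOX, PAX, TBX and NKX factors 6 did, among them PAX7 with 3 members and 0 reads in every library, and FOXN3 with 3 members and 68.4 and 62.7 TPM in WT. No HOX gene of 39 and no AP-1 subunit of 15 did. These are short genes, with median lengths of 4216 and 12342 bp.

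Expression varied within the families. Only 4 of the 20 potassium channel hosts in the count tables were expressed in WT (1 CPM or more in both libraries), and KCNJ6, with 4 members, had 0 reads in each library. None of the 4 cadherin hosts in the count tables was expressed, while all 7 ADAM and ADAMTS hosts and 8 of 9 collagen hosts were. Of 24 mesenchymal genes 3 held a member. COL5A1, a fibrillar collagen chain, was at 206 and 202 TPM in WT, SPARC, a matrix glycoprotein, at 0.967 and 1.03 TPM, and TWIST2 at 0 reads. EPCAM was the 1 host among 22 luminal epithelial genes, at 43.6 and 47.2 TPM.

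The line's markers were checked first in the RNA. VIM, CD44, AXL and ZEB1 were at 90.7 to 2511 TPM in WT, and ESR1 and PGR had 0 reads. Of the others listed as low, CDH1 was at 2.03 and 2.13 TPM. KRT8 was not low, at 384 and 418 TPM. EPCAM, at 43.6 and 47.2 TPM, and ERBB2, at 41.3 and 40.3 TPM, were also clearly detected. The targeted gene, MACROH2A1, was at 385 and 394 CPM in WT and 274 and 300 CPM in KD, a log2 fold change of -0.44 (SE 0.17, edgeR adjusted p = 0.205). Its counts add both splice forms, and only one is targeted. KD replicate 2 was the shallowest library, with 2309549 counts, and had 0 counts on chromosomes 22 and X and 30 on 21, so genes of chromosomes 21, 22, X and Y were left out of the fit, 93 hosts among them.

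Expressed hosts had lower median levels than expressed genes of their length without a member, while the difference in the share expressed depended on length. Of 1462 hosts in the count tables, 901 (61.6%, interval 59.1 to 64.1%) were expressed in WT, against 62.9% (62.1 to 63.6%) of genes without a member. At 30 to 100 kb, where the groups differed most, the share was 59.8% (55.7 to 63.8%) of hosts and 74.1% (72.9 to 75.4%) of genes without a member. Over 100 kb it was 68.8% and 69.3%, with overlapping intervals. Genes that held an mH2A1.1-only peak away from promoters and no member were expressed in 80.0% of cases (77.5 to 82.4%). Among expressed genes of all lengths the median level was 24.1 TPM in both WT replicates for hosts. It was 39.5 and 37.9 TPM for genes without a member and 39.4 and 38.4 TPM for the mH2A1.1-only hosts. By length, hosts and genes without a member were at 24.3 and 41.5 TPM under 30 kb in WT replicate 1. They were at 27.2 and 41.7 TPM at 30 to 100 kb, and closer over 100 kb, at 23.3 and 30.9 TPM. The 2 WT libraries give the same order, but genes share these libraries, so no test was made.

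**Figure D4:**
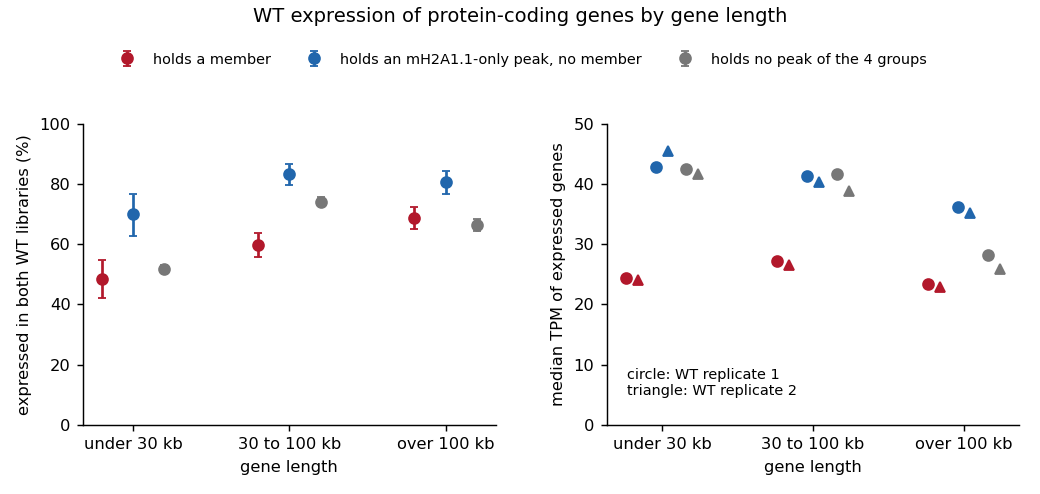
Protein-coding genes by length (x axis): share with 1 CPM or more in both WT libraries (left, %, with exact 95% binomial intervals) and median TPM of those expressed (right, 1 point per WT library). Hosts of members lie below hosts of mH2A1.1-only peaks in each length class on both measures. Grey points are genes that hold no peak of the 4 groups.

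More members went with lower median levels among expressed hosts, pooled over gene length. The share expressed was 62.4% of genes with 1 member, 59.0% with 2, 58.7% with 3 or 4 and 57.1% with 5 or more, within each other's intervals. The median level of those expressed was 26.2 and 25.9 TPM in the WT replicates with 1 member, 22.3 and 21.7 with 2, 15.2 and 13.6 with 3 or 4 and 12.5 and 13.04 with 5 or more. The classes of 3 or 4 and of 5 or more held only 44 and 12 expressed genes. Expressed genes without a member were also lower over 100 kb (30.9 and 28.9 TPM) than under 30 kb (41.5 and 41.4 TPM). Whether the order holds at like length was not tested. In genes of 30 to 100 kb a member was held by 13.3% of those at 0 CPM, by 19.03% of those above 0 to 1, by 15.8% above 1 to 10, by 8.69% above 10 to 100 and by 5.99% above 100. In genes over 100 kb the shares were 15.01%, 22.99%, 21.1%, 16.8% and 17.3%. Genes at very low but detected levels thus had the highest share of hosts in both classes (intervals 16.0 to 22.3% and 19.2 to 27.2%). These intervals overlapped those of genes above 1 to 10 CPM (13.1 to 18.8% and 17.5 to 25.2%). Hosts whose own start also lay under an mH2A1.1 peak were expressed in 69.8% of cases (66.2 to 73.2%), and the others in 54.3% (50.8 to 57.9%). This was not particular to hosts. The own start lay under such a peak in 53.5% of expressed hosts and 37.3% of the other hosts. In genes without a member it did so in 47.8% of those expressed and 32.3% of the others. By CPM, which is not per length, the hosts with the highest mean in WT were FLNA, the actin crosslinker filamin A, at 4261 and 4564 CPM, DYNC1H1, the dynein heavy chain, at 2138 and 2226 CPM, and MACF1, a microtubule and actin crosslinker, at 1457 and 1473 CPM. MACF1 was at 110 and 108 TPM, below COL5A1.

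After mH2A1.1 KD no host gene passed the main test, a count that depended on the fit. edgeR's quasi-likelihood test called 0 of 10963 genes higher (0%) and 0 lower (0%) at adjusted p under 0.1 and fold over 1.5, and so 0 of the 838 hosts tested. At an unadjusted p under 0.05 were 2540 genes, 1290 of them with higher values in KD, and 179 hosts, 129 with higher and 50 with lower values. DESeq2 called 40 hosts higher (7.12% of the 562 with an adjusted p) and 9 lower (1.60%), beside 5.59% and 5.86% of all genes. With the replicate number as a block edgeR called 97 hosts higher (11.6%) and 35 lower (4.18%), beside 9.77% and 10.4% of all genes. Without KD replicate 1 it called 220 higher (25.5%) and 79 lower (9.15%), beside 20.4% and 21.4%, and without KD replicate 2 37 higher (4.33%) and 31 lower (3.63%), beside 2.74% and 5.31%. Without the filter on low counts it called 91 (7.94%) and 38 (3.32%), beside 6.80% and 7.40%. Both KD libraries lay above both WT libraries in 363 hosts (43.3%) and below in 161 (19.2%), beside 32.5% and 32.4% of all genes tested. The median log2 fold change was 0.18 over hosts and 0.0082 over all genes, and 0.080 and 0.27 over hosts for KD replicates 1 and 2 taken alone.

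The shift of hosts went with the GC content of their exons. Exon GC had a median of 52.2% in hosts and 46.4% in other protein-coding genes tested. In genes with exon GC up to 42% the median log2 fold change was -0.44 in hosts and -0.42 in genes without a member. From 42 to 46% it was -0.13 and -0.15, from 46 to 50% 0.045 and 0.079, from 50 to 54% 0.22 and 0.25, and above 54% 0.40 and 0.44. At like exon GC, genes with and without members thus had like values. These classes were chosen after the data were seen. With offsets that remove each library's trends on exon length and exon GC, the median over hosts was -0.0078, beside 0.0080 over all genes. That fit called 18 hosts higher (2.15%) and 32 lower (3.82%), beside 2.17% and 3.16% of all genes.

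**Figure D5:**
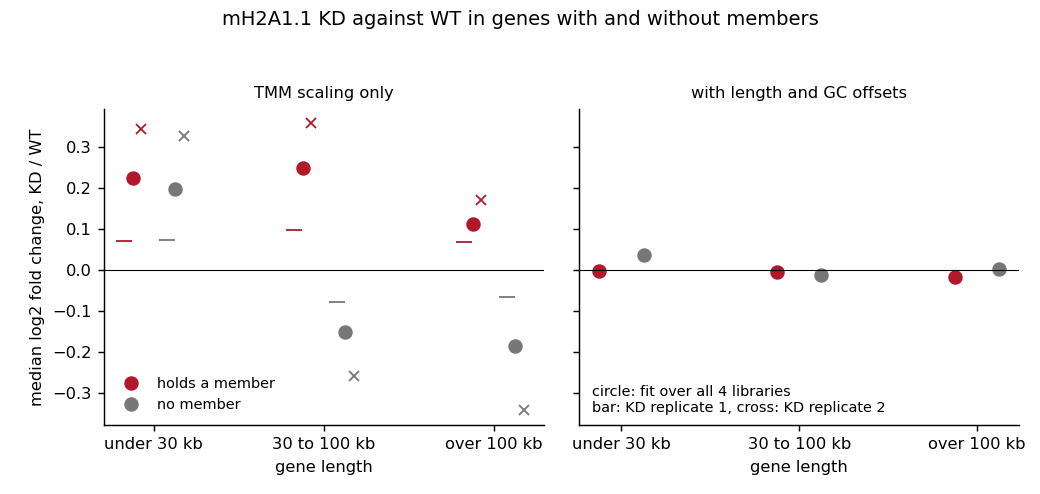
Median log2 fold change of KD over WT (y axis) by gene length (x axis) in genes with and without members, with TMM scaling only (left, with each KD library alone as a bar or cross) and with offsets for exon length and GC (right). Hosts over 100 kb are at 0.11 and other genes of that length at -0.19 on the left, and all values lie between -0.017 and 0.036 on the right.

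The hosts with the smallest p among those higher in both KD libraries were HKDC1, B4GALNT3, ADAM19, OSGIN1 and MGLL, all at an edgeR adjusted p of 0.176. ADAM19, a membrane metalloprotease, was at 90.6 and 101 CPM in WT and 197 and 228 CPM in KD, a log2 fold change of 1.15 (SE 0.19). HKDC1, a hexokinase family member, was at 9.15 and 8.15 CPM in WT and 21.5 and 30.2 CPM in KD (1.54, SE 0.26). MGLL, the monoacylglycerol lipase, was at 39.6 and 44.1 CPM in WT and 75.4 and 91.7 CPM in KD (0.99, SE 0.20). Both KD libraries lay above both WT libraries in all 5 because they were picked that way, as they did in 32.5% of all genes tested. OSGIN1, an oxidative stress response gene, had a log2 fold change of 1.14 (SE 0.22) and B4GALNT3, a glycosyltransferase, of 2.10 (SE 0.40) at 1.16 to 7.56 CPM. With the offsets the edgeR adjusted p-values of the 5 ran from 0.00851 (ADAM19) to 0.0631 (B4GALNT3).

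Those lower in both KD libraries were RASSF3, ETV4, RALGPS1, PRKCE and RRM2. RASSF3, a Ras association domain protein, was at 65.9 and 65.0 CPM in WT and 33.6 and 26.5 CPM in KD, a log2 fold change of -1.10 (SE 0.20, edgeR adjusted p = 0.176). The other 4 were at an edgeR adjusted p of 0.194. ETV4, an ETS family transcription factor, was at 58.4 and 63.6 CPM in WT and 35.5 and 34.0 CPM in KD (-0.81, SE 0.19). RRM2, the small subunit of ribonucleotide reductase, was at 128 and 134 CPM in WT and 86.0 and 75.1 CPM in KD (-0.70, SE 0.18). RALGPS1, an exchange factor for Ral GTPases, was at -1.24 (SE 0.29) and PRKCE, protein kinase C epsilon, at -0.81 (SE 0.21). All 5 had an edgeR adjusted p between 0.0146 and 0.0459 with the offsets. They were picked for their p, so their values describe the ends of the list.

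Of the genes with the most members, RPS6KA2 had the largest difference, at 22.5 and 20.5 CPM in WT and 42.1 and 69.5 CPM in KD, a log2 fold change of 1.34 (SE 0.27, edgeR adjusted p = 0.176). The KD libraries lie above both WT libraries, but also far apart. With the offsets RPS6KA2 was at 0.98 (edgeR adjusted p = 0.0246), and its DESeq2 adjusted p was 0.00445. FRMD4A was at 112 and 113 CPM in WT and 133 and 147 CPM in KD, a log2 fold change of 0.32 (SE 0.17, edgeR adjusted p = 0.288), and 0.13 with the offsets. GRIK4 was at 0.28 (SE 0.20), ADAM12 at 0.65 (SE 0.30) and KAZN at -0.017 (SE 0.20) on the log2 fold change scale, with edgeR adjusted p-values of 0.399, 0.235 and 0.965. With the offsets they were at 0.057, 0.62 and -0.33. RUNX1 lies on chromosome 21 and could not be tested, and was at 255, 241 and 254 CPM in the WT libraries and KD replicate 1.

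No list held a host called by edgeR in the main fit. Over all hosts tested 66.7% had log2 fold changes above 0, and over all genes 50.6%. All 7 ADAM and ADAMTS hosts had log2 fold changes above 0, with a median of 0.50, and 0.10 with the offsets, where 1 was called higher. The 21 tested genes of that list had a median of 0.33. Of 8 axon guidance hosts 6 were above 0, with a median of 0.43, and 0.096 with the offsets. The 6 collagen hosts had a median of 0.11, and -0.21 with the offsets, with COL5A1 at 0.66 (SE 0.17, edgeR adjusted p = 0.194), 431 and 436 CPM in WT and 674 and 693 CPM in KD. COL5A1 was at 0.23 with the offsets (edgeR adjusted p = 0.395), and its DESeq2 adjusted p was 0.0573. The 4 integrin hosts had a median of 0.19, and 0.011 with the offsets. Among receptor tyrosine phosphatases PTPRF was at 0.87 (SE 0.27) and PTPRS at -0.072 (SE 0.27). With the offsets they were at 0.40 and -0.54, and without KD replicate 2 PTPRF was at 0.45.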

How the data were processed

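ChIP-seq peaks and RNA-seq counts of MDA-MB-231 cells were used. The authors aligned reads to GRCh38 with STAR 2.5.1, filtered on mapping quality, called enriched regions against input with normR per library, and deposited them as intervals whose score column is 0 throughout, so no stricter threshold could be set. RNA reads were deduplicated and the authors deposited HTSeq counts per gene, not normalized, as whole numbers for 23167 identifiers, of which 23061 matched GENCODE release 44. Peaks were placed on GENCODE 44 gene starts. The members, gene lists and tests were chosen with earlier results of these data known.

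edgeR 4.0.16 (TMM, filterByExpr, quasi-likelihood test, Benjamini-Hochberg) was run on 10963 genes outside chromosomes 21, 22, X and Y, WT replicates 1 and 2 against mH2A1.1 KD replicates 1 and 2, and DESeq2 1.42.0 was an alternative. Totals were 2309549 to 9794674 counts. CPM values are TMM-scaled over the genes of the fit, and TPM uses summed exon length. SE is the log2 fold change divided by the root of F. Offsets were lowess trends (span 0.3) of each library on exon GC and exon length. The fit was tested on simulated data. The labels do not say whether replicates are separate cultures, so p-values measure the spread between these libraries. A gene is a host if at least 1 bp overlaps a member. A member can lie in more than 1 overlapping gene. Named genes were the 10 with most members, the 5 higher and 5 lower in both KD libraries with the smallest p, the 3 with the highest WT CPM, and up to 4 hosts per gene list. The sequence windows were read from GRCh38, avoiding exons of protein-coding transcripts. Some items, among them a run of members, a gene list and a sequence window, are not reported here.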

Additional observations from a re-analysis of the deposited data

How the results depend on the processing

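The number of members was 2722 when 50% or more of the peak had to lie under mH2A1, with 81.6% of bases covered, 41.4% of members in a protein-coding gene and another annotated start in 29.5%. With the starts of all transcripts of protein-coding genes the shares in a gene and with another start were 33.7% and 19.3%, with the starts of all genes 47.2% and 14.97%, and without the 6 kb class 46.5% and 34.2%, the latter with 57.2% of bases covered. By midpoint 41.0% lay in a gene. Asking for 3000 bp of overlap changed nothing, as the grid implies. Over these alternatives and narrower or wider promoter windows, median GC ran from 47.0 to 47.9% and TGANTCA from 0.334 to 0.341 per kb.

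Hosts called higher and lower numbered 40 and 9 by DESeq2, 91 and 38 without the filter on low counts, 18 and 32 with the length and GC offsets, and 22 and 47 with the offsets and the replicate block. With the replicate block alone they numbered 97 and 35. The differences between replicates 1 and 2 correlated at 0.252 between WT and KD over genes, with only 2 pairs, and whether the numbers pair the samples is open in the labels. Leaving out 1 library gave 0 to 220 higher and 0 to 79 lower, with 220 and 79 without KD replicate 1 and 37 and 31 without KD replicate 2. With offsets and block the shares were 2.63% of hosts higher and 5.61% lower, beside 3.62% and 4.28% of all genes. A lone library is then assumed to vary like the others. The median log2 fold change of hosts was 0.082 to 0.28 without 1 library, -0.0078 with the offsets and -0.014 with offsets and block, and -0.44, -0.13, 0.045, 0.22 and 0.40 in rising classes of exon GC, which were added after the data were seen. The cause of the other changes in counts was not tested.

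Of the 34 named genes in the fit, those near 0 changed sign. FOXN3 was at -0.013 by DESeq2, -0.0063 over all chromosomes, -0.023 without the filter and -0.0061 with the replicate block, and ARHGAP25 was at 0.078 with the block. With offsets, and with offsets and block, ARHGEF10L was at -0.31 and -0.30, ARHGEF18 at -0.14 and -0.22 and ITGA10 at -0.18 and -0.19. Without 1 library the ranges were -0.37 to 0.38 for ARHGAP25, -0.14 to 0.39 for ARHGEF10L, -0.31 to 0.57 for ARHGEF18, -0.15 to 0.13 for FOXN3, -0.12 to 0.24 for ITGA10, -0.31 to 0.33 for ITGB3, -0.062 to 0.028 for KAZN, -0.43 to 0.28 for PLXNA4 and -0.52 to 0.28 for PTPRS.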
